A study of Mus musculus with 6 samples.

Results

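Peaks of 5-hydroxymethylcytosine (5hmC) on mouse chromosome 8 were examined in mouse embryonic stem cells (mESCs) with wild type or D2018A TET1. The members are all peaks that the deposited lists place on chromosome 8 of the mm9 genome, kept apart by genotype. They comprise 241 of the 1230 WT peaks (19.6%, 95% Wilson interval 17.5 to 21.9%) and 150 of the 839 D2018A peaks (17.9%, 15.4 to 20.6%), or 391 of 2069 peaks in all. The chromosome was selected on its number of peaks, the highest of 20 chromosomes in both lists, so these numbers are a description and were not tested. Chromosome 5 came next with 150 WT and 99 D2018A peaks.

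5hmC is made when the TET enzymes oxidise 5-methylcytosine. It can be a step in the removal of methylation from DNA, or it can stay in place. In ES cells TET1 and TET2 are the main writers, and 5hmC is known to gather at enhancers, at promoters of intermediate CpG content and within gene bodies. OGT is the enzyme that adds O-GlcNAc to proteins, TET1 among them. The D2018A change replaces an aspartate near the C-terminus of TET1 that OGT binding needed in the study's assays with TET1 fragments. In mESCs the study found the contact of TET1 with OGT reduced by the change but not lost. The series profiled 5hmC to ask whether weakening this contact changes where 5hmC lies.

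All lines derive from the mESC line LF2 and were grown in medium with serum and LIF. Both copies of Tet1 were edited with CRISPR-Cas9, each line was grown from an edited cell, and in all of them TET1 carries a C-terminal FLAG tag. The edited copies also encode a fluorescent protein, GFP or tdTomato, that is translated separately from TET1. The WT group had 2 lines (lines 2 and 5) edited in this way without the mutation. The D2018A group had 2 lines (lines 7 and 8) that also carry the mutation. Each genotype had 1 input library made without labelling and capture. According to the study's methods, the WT cells also carry a deletion away from the edited site that the D2018A cells lack. In 5hmC-Seal, 100 ng of tagmented genomic DNA is labelled at 5hmC with an azide glucose, biotin is clicked on, and the marked fragments are captured and sequenced.

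Each genotype is represented by 1 list for both lines. No spread between lines, no reads per peak and no sequencing depth are given in the lists, so no test between the genotypes was made, and a region without a peak is a region not called at an unknown depth. The score of a peak was read as 10 times the -log10 of the caller's p-value, which was inferred from the convention of the caller and from lowest scores just over 50. It ranks peaks within its own list and does not measure the amount of 5hmC. Intervals of shares cover counting error only, and count peaks as units. Positions are on mm9.

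The peaks were gathered towards the distal end of the chromosome in both genotypes. In the last 10 Mb window with peaks, from 120 to 130 Mb, there were 99 WT peaks (41.1% of the WT peaks of the chromosome) and 66 D2018A peaks (44.0%). The window before it, from 110 to 120 Mb, had 39 WT and 25 D2018A peaks. By contrast, the 4 windows covering the stretch from 0 to 40 Mb had between 1 and 6 WT peaks and between 2 and 5 D2018A peaks each. The lists placed the same number of peaks, 13 each, between 40 and 50 Mb, although WT had more peaks on the chromosome as a whole. Windows of any size were counted on chromosome 8 only, so they cannot show whether such crowding is particular to it.

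At 1 Mb resolution the lists shared their fullest window. It started at 123 Mb and had 25 WT and 16 D2018A peaks, of which 9 in each list overlapped the other. It was flanked by windows with 19 WT and 9 D2018A peaks (from 122 Mb), 18 WT and 9 D2018A peaks (from 124 Mb), and 16 WT and 14 D2018A peaks (from 125 Mb). The 10 fullest windows of each list contained 54.8% (WT) and 56.0% (D2018A) of the chromosome's peaks. Of 130 windows, 51 had a WT peak, 42 had a D2018A peak, 35 had both and 72 had neither. Spearman's rho of the numbers per window was 0.73 over the 130 windows, which include the 72 empty ones and share the same chromosome, so it is given as a description.

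**Figure D1:**
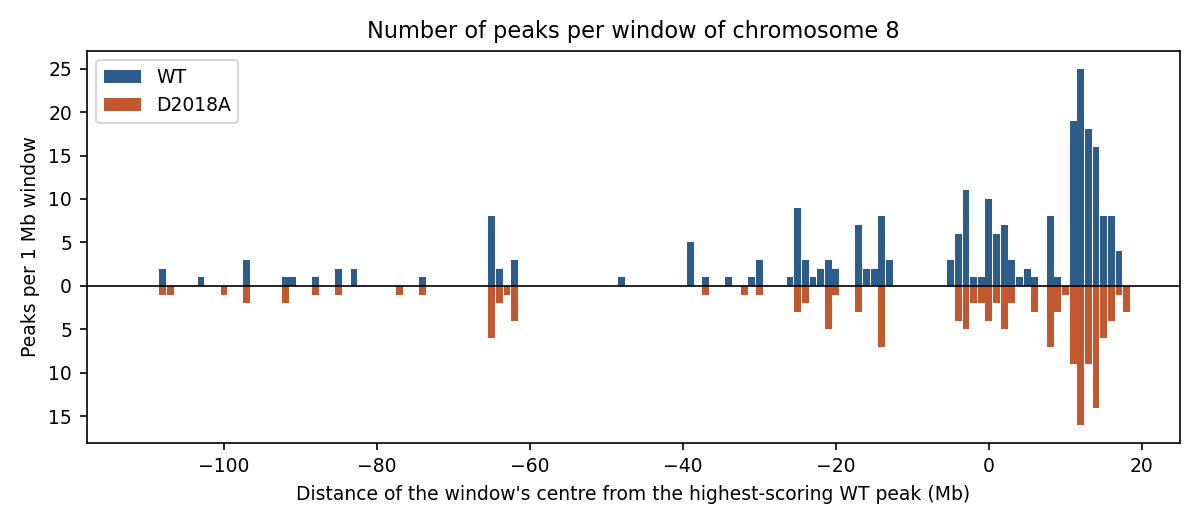
Number of WT peaks (upward bars) and D2018A peaks (downward bars) in each 1 Mb window of chromosome 8, against the distance in Mb of the window's centre from the highest-scoring WT peak. The tallest bars of both lists, 25 WT and 16 D2018A peaks, stand in the same window, and wide stretches to its left have no peak in either list.

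Long stretches of the chromosome had no peak in either list. The longest ran from 49825995 to 63118782, a distance of 13.3 Mb. The next reached from 63119207 to 72240338 (9.12 Mb), and the WT peak between these stretches, from 63118782 to 63119207, had a score of 54.55 and no D2018A counterpart. Further stretches without any peak reached from 37636001 to 46035768 (8.40 Mb) and from 98432320 to 106623777 (8.19 Mb). The last of these lay within the distal, peak-rich part of the chromosome. In D2018A alone the longest interval was 24.8 Mb, from 49427889 to 74206043, and 8 WT peaks fell into it.

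The outermost peaks lay near the chromosome ends. The first WT peak was from 3537452 to 3538174 (score 87.16) and the first D2018A peak from 3606586 to 3606880 (score 58.09), which a WT peak overlapped. The last WT peak was from 128392680 to 128393172 (score 50.07), whereas the last D2018A peak lay further out, from 129939402 to 129939727 (score 54.27).

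The distance between neighbouring peaks follows in part from the choice of the chromosome with the most peaks, and is given as a description. The median distance between neighbouring peaks on chromosome 8 was 71592.5 bp in WT, with quartiles of 14958.5 and 232631 bp. In D2018A it was 136414 bp, with quartiles of 19722 and 410097 bp. On the other chromosomes together these medians were 465719.5 and 672261 bp. The closest neighbours were separated by 5 bp in WT and 47 bp in D2018A, and 12 WT and 10 D2018A intervals were at most 1000 bp long.

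Most peaks on chromosome 8 had scores not far above the calling limit. The WT scores ran from 50.04 to 198.4 with a median of 60.59, and the D2018A scores ran from 50.03 to 116.98 with a median of 58.25. A score under 60 was found for 114 WT peaks (47.3%, against 52.5% of all WT peaks) and 86 D2018A peaks (57.3%, against 60.9% of all D2018A peaks). Scores from 80 upward belonged to 54 WT peaks (22.4%, interval 17.6 to 28.1%, against 14.4% of all WT peaks) and to 19 D2018A peaks (12.7%, 8.26 to 18.9%, against 9.89% of all D2018A peaks). At a score of at least 100 there were 18 WT peaks (7.47%, against 5.77% of all) and 6 D2018A peaks (4.0%, against 3.69% of all). At the limit of 80 the WT interval lies above the share in the whole list, while the D2018A interval includes it. Chromosome 5 was alike in this, with 20.7% of its WT peaks at 80 or more (15.0 to 27.8%), and its 10.0% of WT peaks at 100 or more exceeded the share on chromosome 8.

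**Figure D2:**
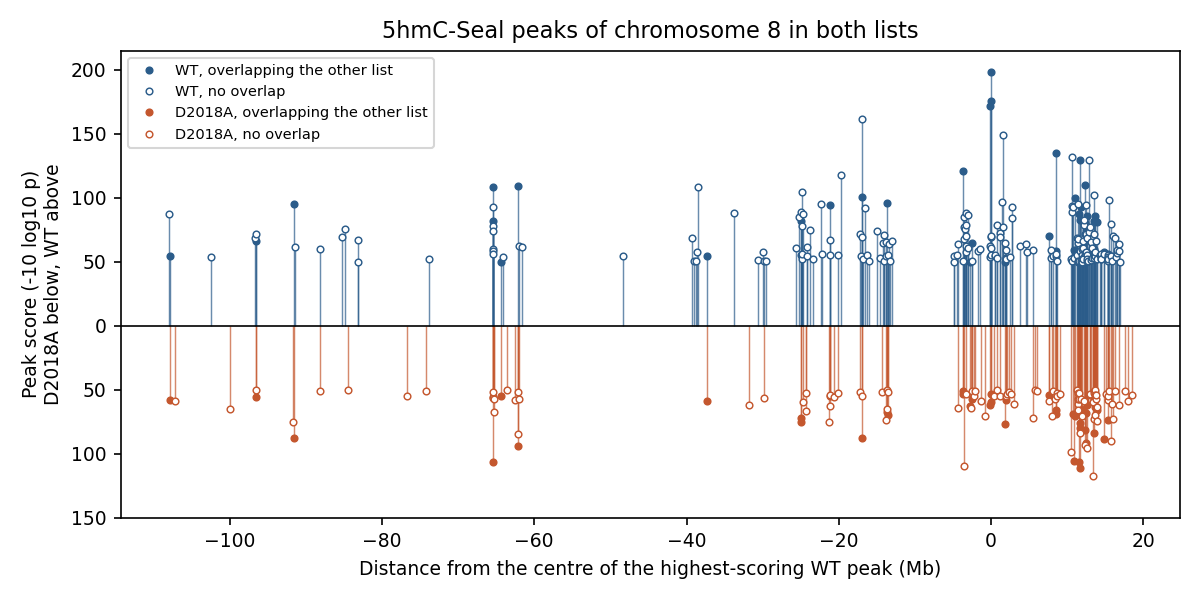
Score (10 times -log10 p) of every chromosome 8 peak, WT above and D2018A below the line, against its distance in Mb from the centre of the highest-scoring WT peak. Filled circles overlap a peak of the other list. The 3 WT peaks with scores from 171.89 to 198.4 stand at or near 0 Mb, whereas the D2018A peaks there have scores from 53.28 to 62.09. Scores rank peaks within their own list only.

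WT peaks were wider than D2018A peaks. The median width on chromosome 8 was 697 bp in WT, with quartiles of 564 and 920 bp and extremes of 360 and 2666 bp. In D2018A it was 411.5 bp, with quartiles of 331.5 and 515.75 bp and extremes of 203 and 876 bp. Even at its lower quartile, the WT width exceeded the upper quartile in D2018A. The corresponding medians on the other chromosomes were 588 bp in WT and 355 bp in D2018A, so the gap between the lists was present there as well. A width of at least 1000 bp was found for 41 WT peaks of chromosome 8 (17.0%, interval 12.8 to 22.3%), against 8.29% of all WT peaks. Of the 150 D2018A peaks 0 were that wide, against 1.07% of all D2018A peaks.

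Width went along with score in both lists. Spearman's rho of width and score was 0.51 over the 241 WT peaks and 0.52 over the 150 D2018A peaks, values that describe peaks of 1 list each. Within each range of scores the median width of WT peaks was larger on chromosome 8 than on the other chromosomes, from 611.5 against 537 bp under 60 to 1147.5 against 1039 bp at 100 or more. In D2018A the direction depended on the score. The medians were larger on chromosome 8 under 60 (360.5 against 333 bp) and from 60 to under 80 (427 against 392.5 bp), but smaller from 80 to under 100 (527 against 564 bp) and at 100 or more (622 against 647 bp). The widest WT peak, from 123096002 to 123098667, spanned 2666 bp and had a score of 129.49. Next came a peak of 1849 bp (86191548 to 86193396, score 84.99). The peak after it measured 1789 bp (123101473 to 123103261, score 54.1) and combined a great width with a score near the calling limit. The 3 widest D2018A peaks measured 876, 831 and 817 bp, lay between 123000756 and 123096781, and each overlapped a WT peak.

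The 3 highest scores in WT came from a stretch between 111315649 and 111473496. The leading peak reached 198.4 (111472108 to 111473496), its left neighbour reached 175.48 (111470095 to 111471775), and a peak further left reached 171.89 (111315649 to 111317396). They ranked 2, 4 and 6 in the whole WT list. All 3 overlapped a D2018A peak. The D2018A peaks at these places had scores of 59.17, 53.28 and 62.09, and ranked 361, 615 and 275 in the whole D2018A list. Among the 150 D2018A peaks of the chromosome they ranked 68, 112 and 58. The fourth WT peak (94554666 to 94556234, score 161.63) had no D2018A counterpart, and the nearest D2018A peak was 33014 bp away. The same was true of the fifth (113009000 to 113010767, score 149.35), at 251770 bp.

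In D2018A the strongest peaks were elsewhere. The peak from 124927009 to 124927459 led with a score of 116.98 and its nearest WT peak was 9597 bp away. It was followed by a peak of score 111.28 (123091684 to 123092559), where the WT peak ranked 157 in the whole WT list (score 82.66). The peak at 123000756 had a score of 106.11, and its WT peak ranked 372 (score 66.12). The peak at 46109145 had a score of 106.02, and its WT peak ranked 161 (score 82.22). The peak at 122394012 had a score of 105.48, and its WT peak ranked 590 (score 59.65). The other D2018A peak with a score above 100, at 107904244 (score 109.18), missed its WT neighbour, from 107902109 to 107903544 (score 67.64), by 699 bp.

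Clusters were defined as 2 or more peaks of a list with at most 10000 bp between neighbours. On chromosome 8 the WT peaks formed 35 clusters with 89 peaks (36.9%, interval 31.1 to 43.2%, against 20.0% of all WT peaks), and the D2018A peaks formed 20 clusters with 49 peaks (32.7%, 25.7 to 40.5%, against 18.4% of all D2018A peaks). These counts depend on the joining distance: at 2000 bp there were 17 WT clusters with 41 peaks and 13 D2018A clusters with 29 peaks, and at 50000 bp 156 WT and 80 D2018A peaks were in clusters. On the other chromosomes together, 15.9% (WT) and 15.2% (D2018A) of the peaks were in clusters. The closer spacing of peaks on chromosome 8 given above moves with these shares, and its part in them was not tested. Most clusters were pairs of peaks, and 12 WT and 4 D2018A clusters had at least 3 peaks. Of the 35 WT clusters, 15 had a D2018A peak within their limits, and of the 20 D2018A clusters, 15 had a WT peak within theirs. This was not counted for clusters of the other chromosomes, so it cannot show whether chromosome 8 differs from the whole lists. Clustered WT peaks had a median score of 60.43, close to the 61.09 of WT peaks outside clusters, and in D2018A these medians were 59.46 and 58.09.

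The locus with the most peaks of both lists together spanned 24376 bp, from 46103038 to 46127413, with 6 WT and 6 D2018A peaks. All 6 WT peaks were in its left part, up to 46112273, and had scores from 56.5 to 108.21. In D2018A, 2 peaks lay among them, and the other 4, with scores from 51.61 to 67.17, formed a separate cluster from 46120774 to 46127413 in which WT had no peak, 8500 bp from the nearest WT peak. At the centre of the WT cluster 2 adjoining peaks were called in both genotypes, and the order of their scores was opposite. The left peak had a score of 108.21 in WT (46108433 to 46109087) and 55.76 in D2018A (46108704 to 46109080). The right peak had a score of 82.22 in WT (46109093 to 46109624) and 106.02 in D2018A (46109145 to 46109696).

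In the locus from 123090850 to 123103261, 3 wide WT peaks faced 6 narrower D2018A peaks. The WT peak from 123091666 to 123092652 (score 82.66) overlapped the D2018A peak from 123091684 to 123092559 (score 111.28), and D2018A peaks stood 38 bp to its left (score 52.4) and 173 bp to its right (score 83.51). The widest WT peak, at 123096002, met a D2018A peak of 831 bp and score 76.09 at its left end. The WT peak at 123101473 had a score of 54.1 and ranked 887 in the whole WT list. The D2018A peak of 519 bp inside it had a score of 79.98 and ranked 84 in the whole D2018A list. A locus from 125152178 to 125166883 had 4 peaks in each list, of which 2 in each overlapped.

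Some WT clusters had no D2018A peak within them. A WT cluster from 122136155 to 122150347 had 4 peaks with scores of 131.69, 93.77, 50.48 and 89.36, and the nearest D2018A peak was 123138 bp or more away from each of them. Another, from 108227688 to 108249006, had 4 WT peaks with scores from 57.74 to 78.48 and its nearest D2018A peak 9495 bp away. The cluster from 111424163 to 111435510 had 3 WT peaks with scores from 55.08 to 69.77, at least 35378 bp from a D2018A peak. Among D2018A clusters of at least 3 peaks, the one from 46120774 described above was the only one without a WT peak inside.

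**Figure D3:**
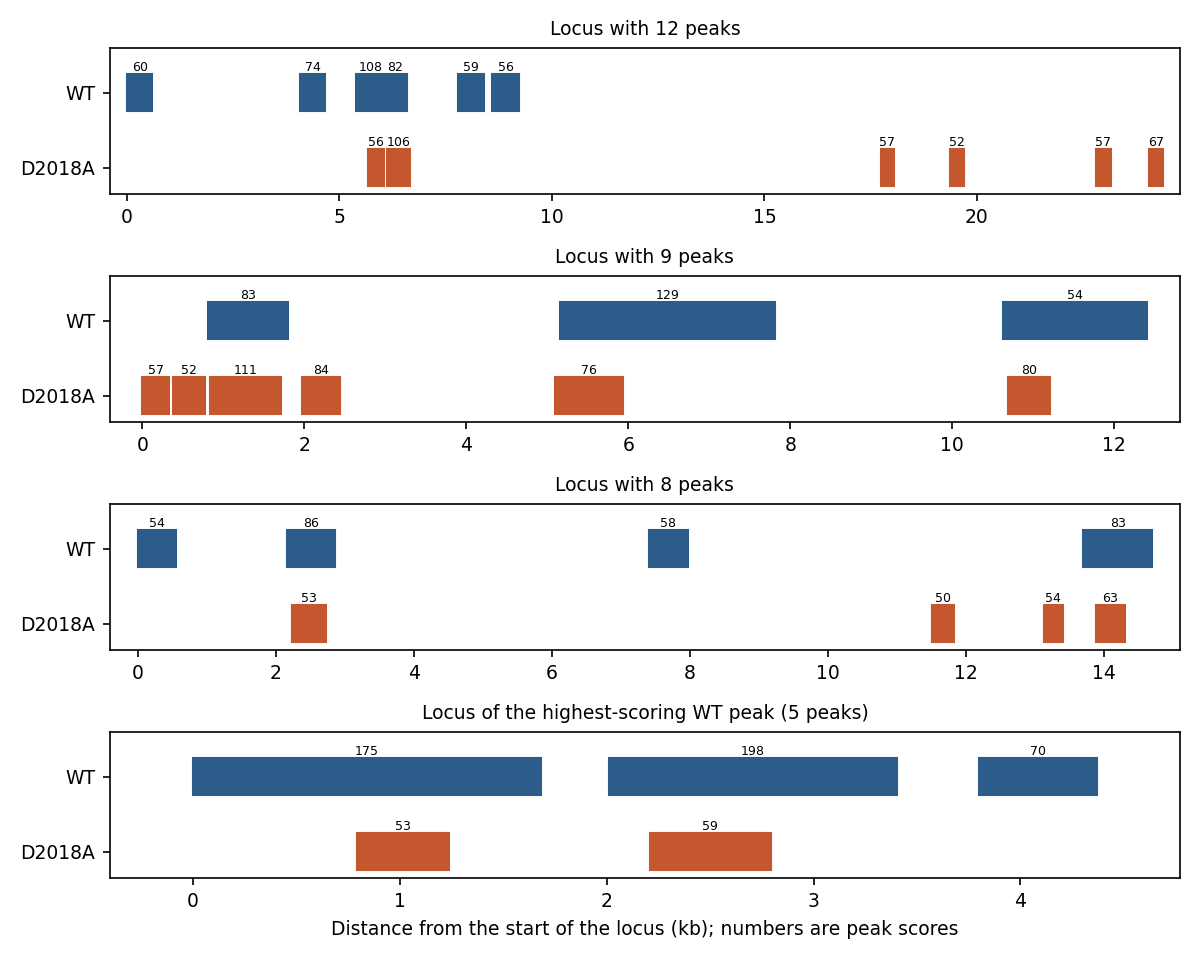
Peaks of 4 chromosome 8 loci drawn to scale, WT above and D2018A below, against the distance in kb from the start of each locus, with the score (10 times -log10 p) rounded above each peak. The panels show the loci with 12, 9 and 8 peaks and the locus of the highest-scoring WT peak, where 2 of 3 WT peaks have a narrower D2018A peak within them.

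Joining the peaks of both lists at the same distance of 10000 bp gave 255 loci on chromosome 8. Peaks of both genotypes were present in 51 of them, WT peaks alone in 135 and D2018A peaks alone in 69. The 51 loci with both held 86 WT and 78 D2018A peaks, and in 10 of these loci no WT peak overlapped a D2018A peak. Loci were not counted on the other chromosomes, so these numbers cannot show whether chromosome 8 differs from the whole lists.

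At the level of single peaks, 48 of the 241 WT peaks (19.9%, interval 15.4 to 25.4%) overlapped D2018A peaks by 1 bp or more, against 15.2% of all WT peaks and 14.1% on the other chromosomes. In D2018A, 49 of 150 peaks (32.7%, 25.7 to 40.5%) overlapped WT peaks, against 22.5% of all D2018A peaks and 20.3% (17.5 to 23.5%) elsewhere. The D2018A intervals of chromosome 8 and of the other chromosomes do not overlap, and the WT intervals do. Both shares rest on the same 49 overlapping pairs, and the intervals count clustered peaks as separate units. No difference between the genotypes can therefore be read from the intervals. Peaks of chromosome 8 were also wider and closer together than elsewhere, and the part of this in the overlap shares was not tested. Reducing every peak to 300 bp around its centre left 43 WT and 44 D2018A peaks with a counterpart. Requiring at least 50% of both peaks left 30 in each list.

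Near misses added few peaks. A further 6 WT and 9 D2018A peaks lay within 1000 bp of a peak of the other list without overlapping it. These were 2.49% of the WT peaks (interval 1.15 to 5.32%), against 1.71% of all WT peaks. In D2018A they were 6.0% (3.19 to 11.0%), against 3.46% of all D2018A peaks. Counting overlaps and distances up to 10000 bp, 34.0% of WT peaks (28.3 to 40.2%) had a D2018A peak nearby, against 24.0% of all WT peaks, and 49.3% of the D2018A peaks (41.5 to 57.3%) had a WT peak nearby, against 34.3% of all D2018A peaks. Peaks without overlap lay a median of 54422 bp (WT) and 35459 bp (D2018A) from the other list. At the far end, 76 WT peaks (31.5%) and 27 D2018A peaks (18.0%) were over 100000 bp from the other list, whereas on the other chromosomes these shares were 61.8% and 51.2%. As with the clusters, the spacing of the peaks differs between the chromosomes, and its part in these shares was not tested.

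**Figure D4:**
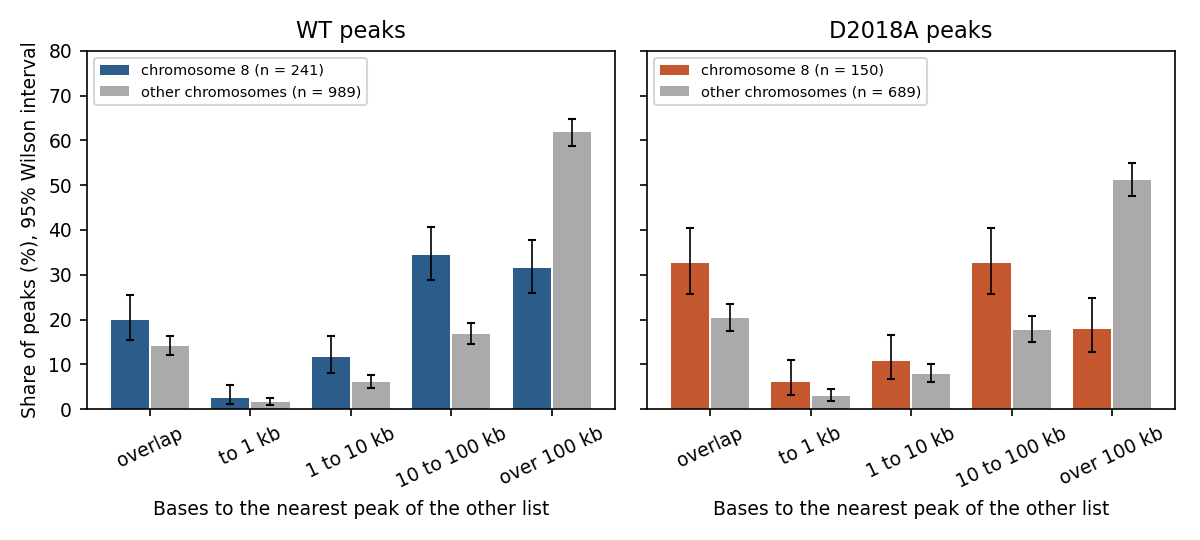
Share of WT peaks (left) and D2018A peaks (right), in percent, by the number of bases to the nearest peak of the other list, for chromosome 8 (coloured) and the other chromosomes (grey). Bars carry 95% Wilson intervals. Over 100 kb lie 31.5% of the WT and 18.0% of the D2018A peaks of chromosome 8, against 61.8% and 51.2% on the other chromosomes.

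Among WT peaks of chromosome 8, overlap was more frequent at high scores but did not follow the score evenly. Of those with a score under 60, 17 of 114 (14.9%, interval 9.52 to 22.6%) overlapped a D2018A peak, and of those from 60 to under 80, 6 of 73 (8.22%, 3.82 to 16.8%) did. From 80 to under 100 the share was 41.7% (15 of 36, 27.1 to 57.8%), and at a score of at least 100 it was 55.6% (10 of 18, 33.7 to 75.4%). On the other chromosomes the shares for the same 4 classes were 9.02%, 15.9%, 24.3% and 39.6%. The D2018A peaks of chromosome 8 gave 20.9% under 60, 44.4% from 60 to under 80, 53.8% from 80 to under 100 and 66.7% (4 of 6) at a score of at least 100. Elsewhere these D2018A shares were 13.2%, 26.0%, 38.5% and 68.0%, so the top class did not stand higher on chromosome 8. Width went along with score in both lists, and its part in the overlap by score was not tested.

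Scores were next compared within the overlapping pairs, by their place in each list. Of the 32 pairs whose WT peak was at or above the median WT score of chromosome 8, 23 had their D2018A peak at or above the median D2018A score. Of the 17 pairs with the WT peak below its median, 12 did. Over the 49 pairs Spearman's rho of the WT and the D2018A score was -0.10, and over the 141 pairs of the other chromosomes it was 0.20. Both values are weak, some peaks are in 2 pairs, and their difference was not tested. The 10 WT peaks that scored 100 or more and had a D2018A counterpart formed 11 pairs, in which the D2018A scores ran from 50.71 to 94.05 with a median of 59.17. The 4 D2018A peaks with a score of at least 100 and a WT counterpart had WT scores from 59.65 to 82.66. On chromosome 8, 0 pairs reached 100 in both lists, and 7 pairs reached 80 in both, although the same limit takes in fewer D2018A than WT peaks. Those 7 were among the 26 pairs with a WT score of 80 or more and the 11 pairs with such a D2018A score, whose WT scores had a median of 82.22. These included a WT peak from 49313724 to 49314652 (score 109.14) with its D2018A peak from 49313832 to 49314578 (score 94.05). They also included a WT peak from 19979812 to 19980330 (score 95.29) with its D2018A peak from 19979806 to 19980332 (score 87.43), nearly the same limits. Pairs at or above the medians or the score limits were not counted on the other chromosomes. These counts therefore cannot show whether chromosome 8 differs from the whole lists.

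The WT peak was the wider of the pair in 44 of 49 pairs (89.8%, interval 78.2 to 95.6%), against 92.1% of pairs on all chromosomes. The median widths in the pairs were 860 bp in WT and 500 bp in D2018A, and the median difference was 246 bp. In 35 pairs (71.4%, 57.6 to 82.2%, against 69.5% on all chromosomes) the D2018A peak lay wholly inside the WT peak. The centres of the paired peaks were a median of 80.5 bp apart, and at most 968.5 bp. The D2018A peak was the wider in 5 pairs, with the greatest excess, 235 bp, at the peak from 123000756 to 123001572 (817 bp against 582 bp in WT).

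**Figure D5:**
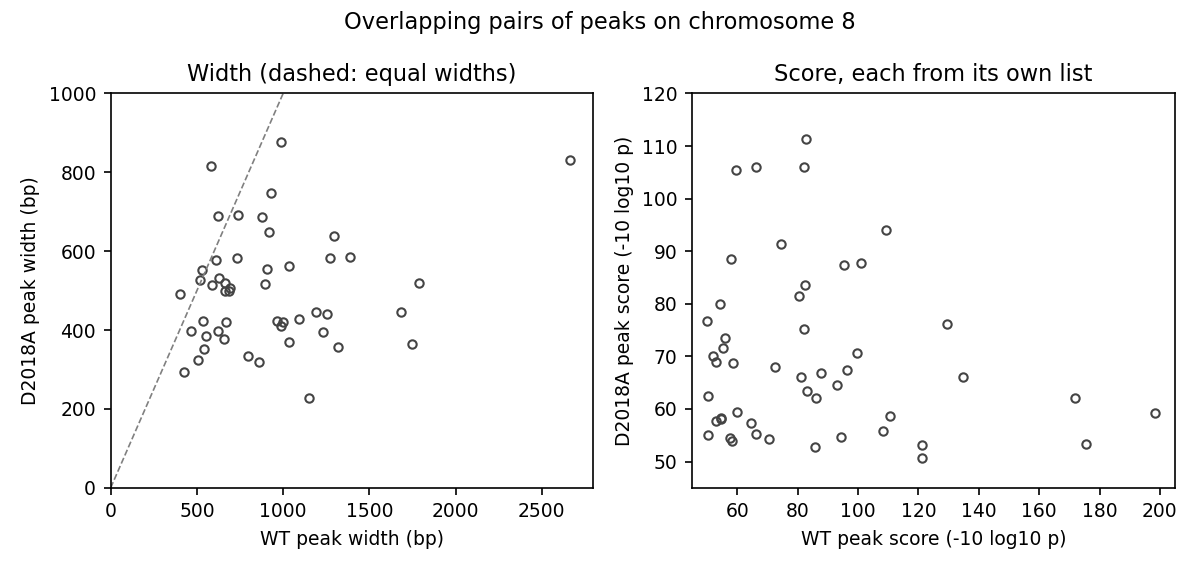
Width in bp (left) and score as 10 times -log10 p (right) of the WT peak, horizontal axis, and the D2018A peak, vertical axis, in each of the 49 overlapping pairs of chromosome 8. In 44 pairs the point is below the dashed line of equal widths, and the pairs with the highest WT scores, 171.89 to 198.4, have D2018A scores from 53.28 to 62.09. Scores rank peaks within their own list only.

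Peaks called in 1 genotype alone made up most of both lists on chromosome 8, with 193 WT peaks (80.1%, interval 74.6 to 84.6%) and 101 D2018A peaks (67.3%, 59.5 to 74.3%). Over the whole lists the shares were higher, at 84.8% in WT and 77.5% in D2018A. The median scores of these chromosome 8 peaks were 59.62 in WT and 56.40 in D2018A, against 80.75 and 66.10 for the peaks with a counterpart. Of the 18 WT peaks that scored 100 or more, 8 had no counterpart (44.4%, 24.6 to 66.3%, against 56.3% of all WT peaks with such scores). Apart from those at 94554666, 113009000 and 122136155, they included the peaks at 124276706 (score 129.69), 91768921 (score 118.05) and 72975579 (score 108.86). The last of these was 1229747 bp from the nearest D2018A peak. In D2018A, 8 of the 19 peaks that scored 80 or more had no WT counterpart (42.1%, 23.1 to 63.7%, against 48.2% of all D2018A peaks with such scores). After the peaks at 124927009 and 107904244 these were led by the peaks at 121988430 (score 98.52), 124075908 (score 95.47) and 123834729 (score 93.37). The nearest WT peaks were 30797, 1403 and 8804 bp away, so that some D2018A peaks without a counterpart stood close to a WT peak.

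Chromosome 5, with the next highest number of peaks, was near chromosome 8 in its overlap shares but not in all values. There, 20.0% of WT peaks (interval 14.4 to 27.1%) and 30.3% of D2018A peaks (22.1 to 40.0%) overlapped the other list, and 34.7% and 23.2% were in clusters. Over 100000 bp from the other list were 41.3% of its WT and 34.3% of its D2018A peaks. Chromosome 4, with 82 WT and 56 D2018A peaks, had overlaps of 7.32% (3.40 to 15.1%) in WT and 10.7% (5.00 to 21.5%) in D2018A, with intervals below those of chromosome 8. In clusters were 4.88% of the WT peaks of chromosome 4 (1.91 to 11.9%), below the interval of chromosome 8, and 23.2% of its D2018A peaks (14.1 to 35.8%), an interval that overlaps that of chromosome 8. Median widths on chromosomes 5 and 4 were 621.5 and 530 bp in WT and 406 and 367.5 bp in D2018A, against 697 and 411.5 bp on chromosome 8.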

How the data were processed

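5hmC-Seal peaks were analysed for 2 WT and 2 D2018A mESC lines. Reads were trimmed (Trim_Galore), aligned to mm9 (bowtie) and used for peak calling (MACS1.4) by the authors, and the submitters' notes also name SAMtools. How the lines and the input of a genotype were combined, and the settings of the caller, are not given in the sources used here. The score deposited by the authors was taken as 10 times the -log10 p-value, an inference from the convention of MACS1.4 and the lowest values, since its meaning is not given in the sources used here. Its lowest value was 50.04 in WT and 50.02 in D2018A. There were 0 other columns of values. Depth is unknown.

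The members and the lists of regions were chosen with earlier results of these data known. From the lists, chromosome 8 peaks were counted per window by their centres (starts counted from 1, widths as end minus start counted from 0), joined into clusters at 10000 bp and compared by overlap of at least 1 bp. Shares have 95% Wilson intervals. The regions named are the 10 highest-scoring peaks of each list, of the peaks without a counterpart and of the overlapping pairs, the 3 widest and narrowest peaks, the 3 longest intervals without a peak, clusters of 3 or more peaks and the outermost peaks, taken from the top. The WT peak at 63118782, the stretches empty in both lists, the loci of both lists, the pair at 19979812 and the pairs wider in D2018A were chosen after their values were seen. No test was run, because each genotype has 1 list. Alternatives were stricter score limits of 80 and 100, merging within 1000 bp, other overlaps, other joining distances and other windows. The functions were tested on simulated lists.

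The genome at hand was GRCm38, whose chromosome 8 has 129401213 bp, and 2 D2018A peaks end beyond it, so genes and sequences were not assigned. Computations ran in Python 3.11.15 with scipy 1.17.1, numpy 2.4.6 and pandas 2.3.3, and plots were drawn with matplotlib 3.10.9.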

Additional observations from a re-analysis of the deposited data

How the results depend on the processing

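Of 42 recomputed values for 17 results, 18 stayed within 1.5 times the count or within the 95% interval of the share or median, and 24 moved. Whether a direction reversed was not checked. With peaks of both lists kept from a score of 80, the number of chromosome 8 peaks was 54 in WT and 19 in D2018A, their share of the list was 30.5% and 22.9%, the number overlapping a peak of the other list that also reached 80 was 7 and 7, the median width was 960.5 and 552 bp, and 71.4% of 7 pairs were wider in WT. With both kept from 100, the number of peaks was 18 and 6, the WT share was 25.4%, 0 peaks of either list overlapped a peak of the other that also reached 100, and the median width was 1147.5 and 622 bp. Fewer peaks entering account for the lower counts by construction, and the cause of the other changes was not tested. Overlaps between peaks that both reach a limit were not counted on the other chromosomes. From 100 upward no pair was left for the comparison of widths. An overlap of 50% of both peaks left 30 peaks in WT and 30 in D2018A. Joining at 2000 bp gave 17 WT and 13 D2018A clusters with 41 and 29 peaks, and joining at 50000 bp put 156 WT and 80 D2018A peaks in clusters. Merging within 1000 bp, shifted or 2 Mb windows and a gap of up to 1000 bp changed none of the results they were applied to beyond these ranges, nor did the reduction of peaks to 300 bp, which was chosen after seeing the data. No paired analysis was possible because the lists hold no values by line, which also prevented leaving out a line. What a missing peak can show is limited by the unknown depth.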
